A study of Mus musculus with 3 samples.

Results

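Classic Drd1 medium spiny neurons of the mouse nucleus accumbens were taken as cells with at least 1 UMI of Drd1 and at least 4 UMIs of Drd1, Tac1, Pdyn and Isl1 together. Expression was read as UMIs, the molecular tags by which amplified copies of an RNA are collapsed to 1 count. The cells also had 0 UMIs of Adora2a and Gpr6, at most 2 UMIs of Tshz1, Pcdh8, Casz1 and Lypd1 together, and 0 UMIs of Slc17a7, Mog and Aqp4. The rule found 1008 cells among 10291 cells that had at least 300 genes and no more than 20% of UMIs in mitochondrial genes, of 11625 deposited. They are called Drd1 neurons here. All mice were of the strain Thy1::ChR2, in which the Thy1 promoter drives channelrhodopsin-2 in projection neurons of many regions. All received FLiCRE labelling while ChR2 was stimulated with light in the NAc, and tissue came from 400 um coronal dissections. The 3 libraries form a single group with no unstimulated control, so comparisons were made between cell classes of the same libraries. FLiCRE couples a protease (TEV) and a transcription factor (tTA) so that calcium coinciding with light turns on a reporter; the mCherry feature is assumed to be that reporter.

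Drd1 neurons are the GABAergic projection neurons of the direct pathway. Dopamine acts on them through the Drd1 receptor, which couples to the G protein subunit Gnal, to adenylyl cyclase 5 (Adcy5) and to the phosphoprotein DARPP-32 (Ppp1r1b). They make the peptides substance P (from Tac1) and dynorphin (from Pdyn), while the spiny neurons of the indirect pathway express Adora2a and Drd2 and make enkephalin (from Penk).

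The libraries are numbered by the suffix of the cell barcode, which nothing ties to the numbered replicates of the labels. The labels do not say that the replicates are separate animals. The p-values of the main fits therefore rest on how far differences between paired classes varied over these libraries. The fit shares that spread in part among genes, and it may be technical. Libraries 1 to 3 held 92, 772 and 144 Drd1 neurons with 124276, 2279833 and 490806 UMIs. Their median depth was 1288.5, 2672.5 and 2871 UMIs per cell, and their median mitochondrial share was 2.60%, 7.30% and 7.29%. Library 1 was thus both shallower and lower in mitochondrial UMIs. Pairs of libraries shared 7 to 22 barcodes over all cells and 0 among Drd1 neurons. No doublet caller was run; the rule removed cells with UMIs of the other classes' genes, and the 5% of cells with most UMIs were left out as an alternative.

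The genes of the rule describe the cells and were not tested. Tac1 had a UMI in 94.6%, 98.3% and 91.7% of Drd1 neurons of libraries 1 to 3, and Pdyn in 46.7%, 68.9% and 85.4%. Isl1, a LIM homeobox factor of the direct pathway lineage, had a UMI in only 10.9%, 20.7% and 18.8%. The cells were therefore picked mainly by Drd1 and Tac1, with Pdyn in a part of them. At the edge of the rule, 116 cells had a sum of 4 UMIs (median depth 1645.5 UMIs) and were members, and 140 cells had a sum of 3 (median depth 1305 UMIs) and were not. A single UMI of Adora2a or Gpr6 kept 81 cells out, and a UMI of Slc17a7, Mog or Aqp4 kept 166 out.

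Neurons were cells with at least 3 UMIs of Snap25, Syt1, Meg3 and Snhg11 together, and 1000 of the 1008 Drd1 neurons met this. Drd1 neurons made up 10.0% of neurons in library 1 (90 of 900, exact 95% interval 8.12 to 12.1), 18.5% in library 2 (768 of 4143, 17.4 to 19.8) and 14.4% in library 3 (142 of 987, 12.3 to 16.7). These intervals cover counting error only. Among neurons of at least 1000 UMIs (468, 3841 and 903 cells), the shares were 14.1%, 19.8% and 15.4%. When these cells were then thinned to 1000 UMIs before the gates were applied, which left 447, 3373 and 822 neurons, the shares became 10.3%, 10.9% and 9.85%. The SD over libraries was 4.27 percentage points at first and 0.53 after both steps, and the intervals of the 3 libraries then overlapped.

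**Figure D1:**
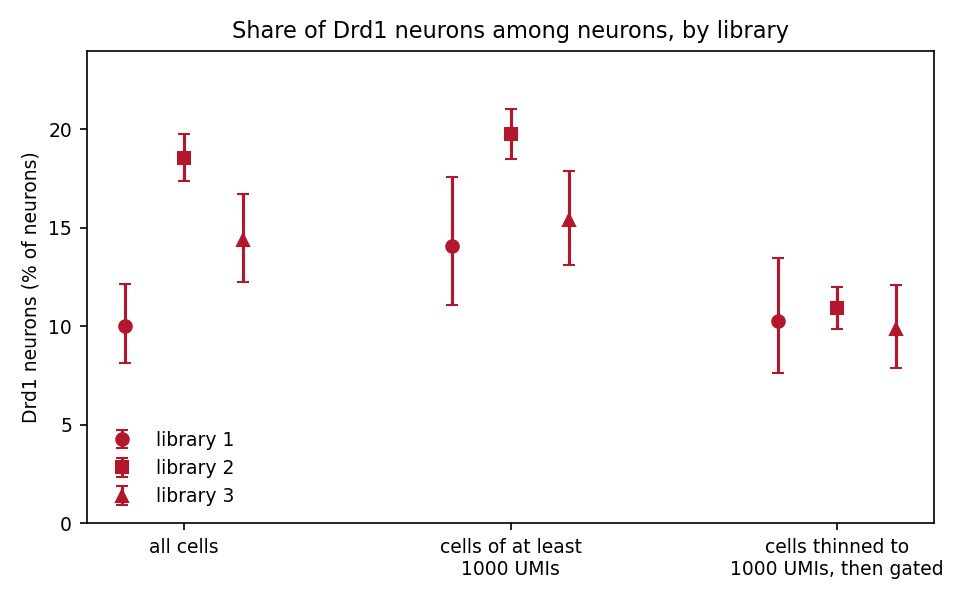
Share of neurons that met the rule for Drd1 neurons (y axis, percent) in libraries 1 to 3 (circle, square, triangle), with exact 95% intervals. At their own depths the libraries sit between 10.0% and 18.5%, and after thinning between 9.85% and 10.9%.

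Levels below are CPM, the UMIs of a gene scaled to 1e6 UMIs of its class in a library, given for libraries 1, 2 and 3 in that order. Differences are log2 fold changes of summed counts with their standard error, from edgeR's quasi-likelihood test with the library as block, and a gene passed at an adjusted p under 0.05 (Benjamini-Hochberg over all genes tested). The smallest adjusted p-values rest on a spread that edgeR shares among genes and are not printed. A lower sum can mean fewer cells with the RNA or less RNA per cell, and the sums cannot tell these apart. All 3 comparisons use the same Drd1 neuron sums.

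Against all other neurons, most genes that mark spiny neurons in general were higher in Drd1 neurons. The comparator held 5030 neurons (810, 3375 and 845). It was every neuron that did not meet the rule, so it included the 728 Adora2a and 226 Tshz1-Pcdh8 neurons compared below. Cells with Drd1 that narrowly missed the rule were in it too where they met the neuron gate. Of 10572 genes tested, 262 were higher in Drd1 neurons (2.48%) and 884 lower (8.36%), 10.8% in all. The 3 libraries of Drd1 neurons lay wholly above those of the other class for 5.91% of genes tested and wholly below for 6.82%, which is the base rate for genes said not to overlap. Of 28 genes that mark spiny neurons in general, 19 were higher and 0 lower, with a median log2 fold change of 0.55 against 0.00 over all genes. Ppp1r1b stood at 2591, 1455 and 2068 CPM in Drd1 neurons and at 2146, 895 and 1000 CPM in other neurons, a log2 fold change of 0.64 ± 0.13 (SE, n = 3 libraries, edgeR adjusted p = 0.0050). It was higher in each library, although the ranges overlapped between libraries. Pcp4, a small regulator of calmodulin, had 5576, 4022 and 4128 CPM against 3135, 2562 and 2189 CPM and did not overlap (0.75 ± 0.11).

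Part of the signal path below the dopamine receptor was higher than in other neurons too. Against Adora2a neurons, compared below, most genes of this list did not pass. Of 36 genes of cAMP signalling, 11 were higher and 2 lower, with a median of 0.35. When other neurons also had 0 UMIs of Slc17a7, Mog and Aqp4, 4 were higher and 1 lower. Gnal had 684, 711 and 837 CPM against 572, 451 and 504 CPM (0.54 ± 0.11, edgeR adjusted p = 0.0060), and Adcy5 had 821, 625 and 890 CPM against 749, 391 and 423 CPM (0.63 ± 0.14, edgeR adjusted p = 0.0098). Pde10a, the phosphodiesterase that breaks down cAMP and cGMP in spiny neurons, had 1046, 798 and 795 CPM against 694, 494 and 441 CPM (0.68 ± 0.10). Gnal and Pde10a did not overlap between the classes, while Adcy5 did. Rgs4, which speeds the shut-off of G proteins, was higher without overlap at 523, 668 and 644 CPM against 285, 341 and 309 CPM (0.94 ± 0.11). Gnas and Adcy2 were the lower genes of this list. Ppp1r1b, Gnal, Adcy5 and Pde10a lie outside the rule for named genes and were chosen after their values were seen. Homer1 below, Strip2 against Adora2a neurons and Foxp2 against Tshz1-Pcdh8 neurons also lie outside that rule.

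Receptors and channels moved in both directions. Of 20 transmitter and peptide receptors tested, 5 were higher and 1, the muscarinic receptor Chrm3, was lower. Among the 5 was the kappa opioid receptor Oprk1, through which dynorphin acts, at 137, 121 and 189 CPM against 130, 58.8 and 68.2 CPM (0.99 ± 0.18). Htr4, a serotonin receptor coupled to Gs proteins, was higher without overlap at 8.05, 16.2 and 8.15 CPM against 2.14, 3.63 and 2.52 CPM (2.01 ± 0.33). It was rare, with 42 UMIs in 39 Drd1 neurons, and had a UMI in 1.09% of the 92 Drd1 neurons of library 1. Its DESeq2 adjusted p was 0.20, and its edgeR adjusted p was 0.084 without library 3. Of 37 potassium channel genes 9 were higher and 4 lower, and of 13 GABA receptor genes 3 were higher (Gabra2, Gabra4 and Gabrd) and 1 lower (Gabbr2). Over all genes 10.8% passed. When other neurons also had 0 UMIs of Slc17a7, Mog and Aqp4, 4 receptors were higher and 0 lower. Of the potassium channel genes 2 were then higher and 1 lower, and 0 GABA receptor genes passed. DESeq2 called 3 receptors higher and 1 lower, 2 potassium channel genes higher and 0 lower, and 0 GABA receptor genes.

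Many genes of other cell types were lower in Drd1 neurons. All 6 oligodendrocyte markers, 5 of 6 astrocyte markers, 3 of 3 endothelial markers and 4 of 4 glutamatergic markers were lower. Their summed levels were 919 to 1054 CPM against 1370 to 3491 CPM for oligodendrocytes, 644 to 1838 against 2355 to 5905 CPM for astrocytes, and 0 to 19.7 against 184 to 379 CPM for glutamatergic cells. Of 4 interneuron markers 2 were lower, and the interneuron list summed to 16.1 to 450 CPM against 808 to 1097 CPM. Of 5 microglial markers 3 were lower in edgeR and 0 in DESeq2. Their summed levels overlapped, at 95.8 to 340 CPM against 119 to 673 CPM. No marker of these lists was at 0 in both classes. The rule had removed Drd1 neurons with a UMI of Slc17a7, Mog or Aqp4, but not other neurons with one. The classes were therefore not selected alike for glutamatergic, oligodendrocyte and astrocyte genes. When other neurons also had 0 UMIs of these 3 genes, 382 genes passed (77 higher, 305 lower), 0 oligodendrocyte markers did, and 5 spiny neuron genes were higher in place of 19. In that setting 1 astrocyte, 1 interneuron, 3 microglial and 3 endothelial markers were lower, and no glutamatergic marker had enough UMIs to be tested.

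Interferon-response genes were also lower, with 14 of 18 passing and a median of -1.54. Their summed level was 322, 722 and 330 CPM in Drd1 neurons and 378, 1693 and 1328 CPM in other neurons, a small gap in library 1 and a wide one in libraries 2 and 3. With the stricter set of other neurons 8 passed. Of 25 immediate early and other activity genes, 6 were lower and 1 was higher. Fos had 16.1, 37.3 and 57.0 CPM against 24.7, 83.3 and 124 CPM (-1.18 ± 0.16, edgeR adjusted p = 0.00025). Homer1 had 233, 339 and 393 CPM against 182, 225 and 218 CPM (0.61 ± 0.12, edgeR adjusted p = 0.0046). Homer1 did not overlap between the classes, and Fos did. Bdnf, the neurotrophin of cortical neurons, had 3 UMIs in all Drd1 neurons and 383 in other neurons, 25.9 times as many per UMI (95% interval 8.78 to 126, counting error only). With the stricter set of other neurons Bdnf had too few UMIs to be tested.

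The number of genes that passed against other neurons rested on the larger libraries. It was 2252 without library 1, 15 without library 2 and 0 without library 3, where 1369 genes had an unadjusted p under 0.05 in edgeR. Of the spiny neuron genes, 26 were higher without library 1 and 0 without library 2 or 3, where 15 or fewer genes passed in all. DESeq2 on all libraries called 363 genes, with 11 of the 28 spiny neuron genes higher.

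The sharper comparison set Drd1 neurons against the spiny neurons of the indirect pathway. These Adora2a neurons had at least 2 UMIs of Adora2a and Gpr6 and 0 UMIs of Drd1, Pdyn and Isl1, and met the same limits for other classes, with 728 cells (152, 429 and 147). Of 7321 genes tested, 116 were higher in Drd1 neurons (1.58%) and 90 lower (1.23%), 2.81% in all. The libraries of the classes did not overlap, with Drd1 neurons higher, for 4.08% of genes tested, and with Drd1 neurons lower for 2.91%. The genes known for the direct pathway and those known for the indirect pathway moved in opposite directions. Of 7 direct pathway genes tested outside the rule, 5 were higher and 0 lower, with a median of 1.74 against 0.00 over all genes. Of 7 indirect pathway genes tested, all 7 were lower, with a median of -2.60. DESeq2 called 5 direct pathway genes higher and 5 indirect pathway genes lower. Without libraries 1, 2 and 3 in turn, 6, 5 and 4 direct pathway genes were higher and 8, 5 and 6 indirect pathway genes lower. The number tested changed with the libraries, and both lists were chosen with earlier results of these data known.

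Slc35d3, a nucleotide sugar transporter of direct pathway neurons, had 72.4, 132 and 149 CPM in Drd1 neurons and 5.61, 5.99 and 2.08 CPM in Adora2a neurons. The classes were far apart in each library, with a log2 fold change of 4.65 ± 0.29. Ebf1, a transcription factor that direct pathway neurons need to mature, had 56.3, 49.6 and 155 CPM against 0, 7.49 and 10.4 CPM (3.27 ± 0.30). Sfxn1, a mitochondrial serine transporter, had 153, 88.6 and 147 CPM against 33.6, 36.7 and 18.7 CPM (1.74 ± 0.20). Stmn2, a regulator of microtubules, had 113, 157 and 124 CPM against 44.9, 59.1 and 12.5 CPM (1.65 ± 0.17). None of these 4 genes overlapped between the classes. Wnt2 (-0.13 ± 0.30) and Ddit4l (0.27 ± 0.31) did not pass.

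Sfxn1 is also the neighbour of Drd1 on chromosome 13. The genes point away from each other, and their starts lie 16.2 kb apart in RefSeq. Sfxn1 spans chr13:54071869-54108342 on the plus strand, Drd1 chr13:54051183-54055705 on the minus strand and Slc35d3 chr10:19847916-19851459 on the minus strand in GENCODE, build GRCm38, to which the labels' mm10 corresponds. The 250 bases before the RefSeq start (GRCm38.p6) are printed for Drd1, the gene that chose the cells, for its neighbour Sfxn1 and for Slc35d3, the direct pathway gene with the widest gap. Each reads 5′ to 3′ on the strand of its gene, and capitals mark the GC box searched (GGGCGG, either strand). The windows are chr13:54055659-54055908 for Drd1, chr13:54071595-54071844 for Sfxn1 and chr10:19851460-19851709 for Slc35d3.
Drd1: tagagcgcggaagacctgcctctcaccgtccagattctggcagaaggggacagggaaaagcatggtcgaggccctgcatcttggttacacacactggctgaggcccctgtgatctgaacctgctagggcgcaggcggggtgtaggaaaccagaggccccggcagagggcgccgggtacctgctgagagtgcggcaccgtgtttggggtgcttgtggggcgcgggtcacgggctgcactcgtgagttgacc
Sfxn1: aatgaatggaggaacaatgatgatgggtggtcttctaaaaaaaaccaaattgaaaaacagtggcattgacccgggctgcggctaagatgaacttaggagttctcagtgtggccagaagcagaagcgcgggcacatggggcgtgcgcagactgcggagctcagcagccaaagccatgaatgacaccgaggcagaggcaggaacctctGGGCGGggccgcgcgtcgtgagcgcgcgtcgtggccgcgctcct
Slc35d3: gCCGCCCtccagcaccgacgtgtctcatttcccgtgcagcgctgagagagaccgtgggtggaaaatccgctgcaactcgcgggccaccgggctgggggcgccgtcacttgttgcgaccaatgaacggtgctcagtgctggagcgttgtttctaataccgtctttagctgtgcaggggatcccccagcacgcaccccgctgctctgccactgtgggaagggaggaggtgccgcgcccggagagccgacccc
The Sfxn1 and Slc35d3 windows each held 1 GC box and the Drd1 window 0, while the window of a second RefSeq start of Drd1 held 1. The letters GGGCGG on either strand occurred in 32.7% of 32851 RefSeq windows of this length. The cAMP response element TGACGTCA, found in 1.55% of the windows, and the letters TATAAA, found in 12.4%, occurred in none of the 3 printed. GC content was 64%, 58% and 65.6% for Drd1, Sfxn1 and Slc35d3, against a median of 52.4%, and CG pairs numbered 15, 19 and 22 against a median of 6.

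On the indirect pathway side, Penk had 426, 574 and 575 CPM in Drd1 neurons and 6634, 7716 and 9522 CPM in Adora2a neurons, a log2 fold change of -3.90 ± 0.10. The level differed about as much in each of the libraries. At 1000 UMIs per cell, a Penk UMI was seen in 17.9%, 33.9% and 25.9% of Drd1 neurons and in 95.5%, 97.4% and 94.4% of Adora2a neurons. Without thinning the shares were 23.9%, 59.8% and 41.7% in Drd1 neurons and 93.4%, 99.1% and 97.3% in Adora2a neurons. In cells gated as oligodendrocytes, which should lack Penk, the share was 2.46%, 17.5% and 5.78% thinned and 3.30%, 31.3% and 16.9% unthinned. Median depths were 1010, 2089 and 4140 UMIs in the oligodendrocyte-gated cells and 1080, 2970 and 2537 UMIs in Adora2a neurons. Penk in Drd1 neurons thus stood above the level in oligodendrocytes and well below that in Adora2a neurons, in every library.

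Grik3, a kainate receptor subunit, had 0, 2.63 and 4.07 CPM in Drd1 neurons (8 UMIs in all) and 72.9, 74.1 and 89.5 CPM in Adora2a neurons (-4.73 ± 0.35). Sp9, the transcription factor that indirect pathway neurons need to form, had 40.2, 5.26 and 4.07 CPM against 78.5, 89.1 and 95.8 CPM (-3.72 ± 0.28). Both were lower in each library without overlap, with Sp9 least so in library 1. Ptprm, Plxdc1, Gucy1a3 and Necab1 were lower by 2.60, 2.31, 1.20 and 0.91 on the log2 scale, and of these only Necab1 overlapped between the classes. Plxdc1 and Necab1 did not pass in DESeq2 (adjusted p = 0.73 and 0.38) or in edgeR without library 3 (adjusted p = 0.12 and 0.17). Drd2 itself was too rare to test, with 2 UMIs in Drd1 neurons and 7 in Adora2a neurons. Chrm4, a muscarinic receptor of direct pathway neurons, had 1 UMI and Eya1 10 UMIs in Drd1 neurons.

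**Figure D2:**
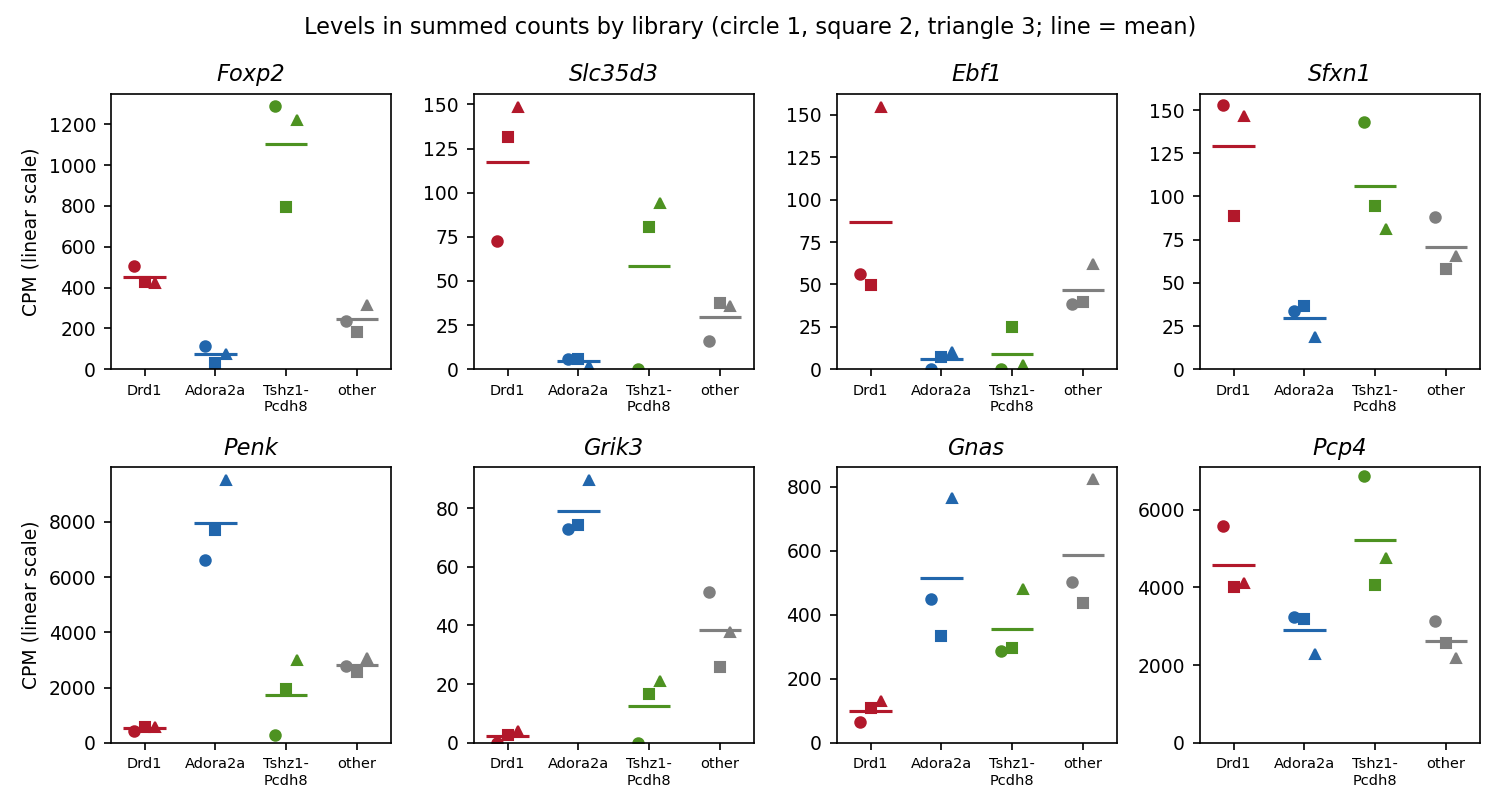
CPM (y axis, linear) of 8 genes in the summed counts of Drd1, Adora2a, Tshz1-Pcdh8 and other neurons, 1 symbol per library and a line at the mean of the 3. Foxp2, Slc35d3, Ebf1 and Sfxn1 stand higher in Drd1 than in Adora2a neurons and Penk, Grik3 and Gnas lower, without overlap.

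Transcription factors divided the classes in both directions. Of 25 tested, 5 were higher (Ebf1, Foxp2, Tshz2, Dlx5 and Pbx3) and 5 lower (Sp9, Zfhx3, Foxp1, Meis2 and Six3) in Drd1 neurons. Foxp2, a forkhead factor known for its part in vocal learning, had 507, 426 and 424 CPM against 112, 31.4 and 75.0 CPM (3.07 ± 0.14). At equal depth, 32.8%, 34.2% and 31.7% of Drd1 neurons and 7.95%, 3.57% and 7.04% of Adora2a neurons had a Foxp2 UMI. Its relative Foxp1 went the other way, with 925, 611 and 1104 CPM against 1565, 852 and 1605 CPM (-0.57 ± 0.08). The Foxp2 levels did not overlap, while the Foxp1 levels did between libraries, with Drd1 neurons lower within each.

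Further genes that were higher in Drd1 neurons belong to several families. Lingo2, a leucine-rich repeat adhesion protein, had 56.3, 55.7 and 81.5 CPM (174 UMIs) against 0, 1.5 and 0 CPM (2 UMIs), a ratio of 59.9 per UMI (95% interval 16.3 to 499, counting error only). Gfra1, a receptor for GDNF, had 40.2, 46.9 and 69.3 CPM against 16.8, 5.24 and 4.16 CPM (3.07 ± 0.35). Asic4, of the acid-sensing channel family, had 233, 81.1 and 132 CPM against 50.5, 12.7 and 18.7 CPM (2.59 ± 0.23). Dlk1 (2.59 ± 0.25), Ube2ql1 (2.07 ± 0.30) and the orphan receptor Gpr26 (1.88 ± 0.23) were likewise higher without overlap. Adra2c, the alpha-2C adrenergic receptor, had 193, 154 and 185 CPM against 67.3, 98.8 and 81.2 CPM (0.85 ± 0.15). Wfs1, an endoplasmic reticulum protein, was higher within each library at 290, 782 and 548 CPM against 135, 471 and 258 CPM (0.85 ± 0.10), though its level varied as much between libraries as between classes.

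Among genes that were lower, Gnas, the G protein subunit Gs, had 64.4, 107 and 130 CPM in Drd1 neurons and 449, 332 and 764 CPM in Adora2a neurons (-2.04 ± 0.12). The classes did not overlap, and at equal depth a Gnas UMI was seen in 5.97%, 8.15% and 12.2% of Drd1 neurons and in 30.7%, 19.8% and 40.1% of Adora2a neurons. Gnal, which takes the place of Gnas at striatal dopamine and adenosine receptors, had 684, 711 and 837 CPM against 858, 683 and 868 CPM and did not pass (-0.06 ± 0.09, edgeR adjusted p = 0.93). Several overlapping transcripts lie at the Gnas locus, so its value may not be that of Gs alone. P2ry1, an ADP receptor, had 0, 6.58 and 4.07 CPM against 101, 86.1 and 110 CPM (-3.95 ± 0.28). Unc5d, a netrin receptor, had 0, 3.51 and 4.07 CPM against 44.9, 37.4 and 37.5 CPM (-3.41 ± 0.40). Nrxn2, a presynaptic adhesion protein, was lower by 1.44 ± 0.13 at 169, 91.7 and 102 CPM against 415, 240 and 306 CPM. Adenosine kinase (Adk) was lower by 1.95 ± 0.22, and Fig4, a lipid phosphatase, by 2.63 ± 0.30.

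**Figure D3:**
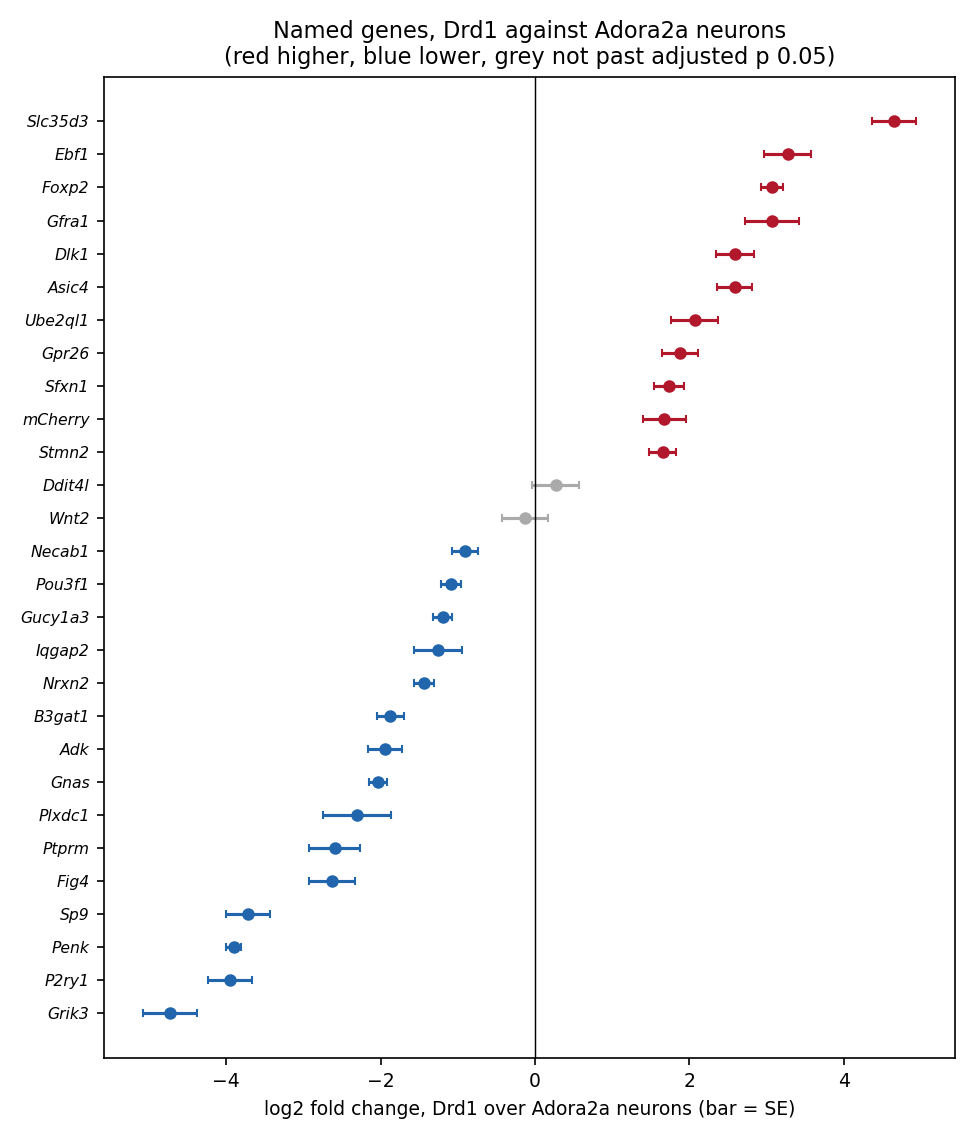
Log2 fold change of named genes between Drd1 and Adora2a neurons (x axis, bars are standard errors), leaving out genes with 3 or fewer UMIs in a class. Slc35d3 stands highest at 4.65 and Grik3 lowest at -4.73, and the 2 grey genes, Ddit4l and Wnt2, did not pass.

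Of the general spiny neuron genes, more were lower than higher in Drd1 neurons against Adora2a neurons. Of 28, 2 were higher and 9 lower, and the median was -0.13. DESeq2 called 1 higher and 4 lower. Without libraries 1, 2 and 3 in turn, 2, 1 and 0 were higher and 9, 5 and 2 lower. Pcp4 had 5576, 4022 and 4128 CPM against 3241, 3182 and 2290 CPM (0.61 ± 0.08) and Strip2 was the other that was higher (0.43 ± 0.12). Among those that were lower were Hpca (-0.72 ± 0.08) and Arpp19 (-0.54 ± 0.08). Ppp1r1b did not pass (0.08 ± 0.08, edgeR adjusted p = 0.88). Of 34 cAMP signalling genes, 1 was higher (Rgs4) and 5 were lower (Arpp19, Arpp21, Gnas, Gng7 and Rgs8), with a median of -0.083. Adcy5 and Pde10a did not pass. DESeq2 called 1 of the 34 higher and 2 lower.

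Counts for ion channels and fast transmitter receptors are read beside the 2.81% of all genes that passed. Of 12 GABA receptor genes, 0 passed in edgeR or DESeq2, and 1 had an unadjusted p under 0.05 in edgeR. Of 30 potassium channel genes 1 passed, the leak channel Kcnk2, with 233, 239 and 208 CPM against 314, 311 and 429 CPM (-0.60 ± 0.11). Of 30 sodium and calcium channel genes, Scn2a1 was higher (0.37 ± 0.10) and Cacna2d2 lower (-0.97 ± 0.18), and of 15 glutamate receptor genes Grik3 and Gria3 (-0.35 ± 0.11) were lower. Kcnk2, Scn2a1, Cacna2d2 and Gria3 did not pass in DESeq2 or without library 3, while Grik3 passed in both. The edgeR adjusted p of Scn2a1 was 0.061, 0.49 and 0.53 without libraries 1, 2 and 3 in turn.

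Among peptides other than Penk, neurotensin (Nts) had 48.3, 315 and 75.4 CPM against 61.7, 123 and 41.6 CPM (1.20 ± 0.15). It was lower in Drd1 neurons in library 1 and higher in the others, and its log2 fold change was 0.53 without library 2 (edgeR adjusted p = 0.88), while DESeq2 gave an adjusted p of 0.89. Cartpt was lower (-0.54 ± 0.11), and its edgeR adjusted p was 0.65 without library 3 and its DESeq2 adjusted p 0.35. Sst also passed (2.06 ± 0.17), but 5 cells held 70.8% of its 703 UMIs in Drd1 neurons and 0 UMIs came from library 1. The activity genes gave 1 higher, Scg2 (0.39 ± 0.10), and 1 lower, Nr4a1 (-0.68 ± 0.16), of 21. Without library 2 their edgeR adjusted p was 0.064 and 0.76, and without library 3 it was 0.65 and 0.37. Of 9 interferon-response genes, 2 were higher, among them Isg15 (0.86 ± 0.20), and DESeq2 called 0. Isg15 had 16.1, 106 and 30.6 CPM against 0, 53.2 and 31.2 CPM, so the gap was widest in library 2 and library 3 ran slightly the other way. Without library 2 its log2 fold change was 0.17 (edgeR adjusted p = 1.0). The summed list levels of 322, 722 and 330 CPM against 207, 566 and 473 CPM overlapped. Oligodendrocyte markers summed to 919 to 1054 CPM in Drd1 neurons and 776 to 827 CPM in Adora2a neurons, and Mbp passed among them (0.32 ± 0.10), so their part in small differences was not tested.

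**Figure D4:**
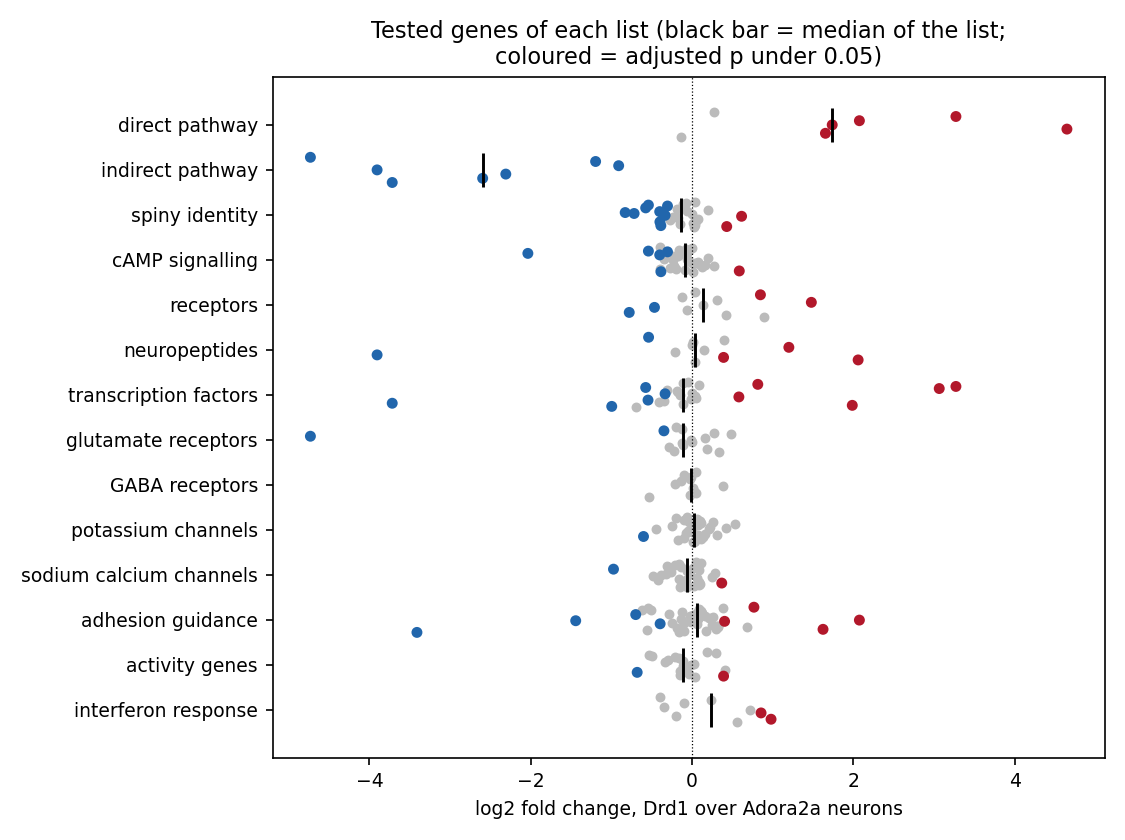
Log2 fold change between Drd1 and Adora2a neurons (x axis) of each tested gene of 14 lists, coloured where it passed, with the median of each list as a black bar. The direct and indirect pathway lists lie apart, with medians of 1.74 and -2.60, and the medians of the other lists lie between -0.13 and 0.23.

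The number of genes that passed against Adora2a neurons was 204 without library 1, 75 without library 2 and 39 without library 3, and 41 in DESeq2. All 58 genes that the rule for named genes chose and that passed kept their direction in every alternative that tested them. Of the 58, 54 passed without library 1, 38 without library 2, 30 without library 3 and 34 in DESeq2, and 10 were tested and passed in every alternative, among them Asic4, Foxp2, Gnas, Gpr26, Grik3, P2ry1, Penk and Slc35d3.

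The last class, Tshz1-Pcdh8 neurons, had at least 4 UMIs of Tshz1, Pcdh8, Casz1 and Lypd1 and 0 UMIs of Adora2a and Gpr6, and need not lack Drd1. It held 226 cells (8, 124 and 94). The 8 cells of library 1 held 6988 UMIs, so that a single UMI there equalled 143 CPM. Of 6310 genes tested, 115 were higher in Drd1 neurons (1.82%) and 76 lower (1.2%), 3.03% in all. For 9.79% of genes tested Drd1 neurons were higher without overlap, and for 4.25% lower. Leaving out library 1 raised the count to 398. Leaving out library 2 or library 3 gave 0, and 305 and 191 genes then had an unadjusted edgeR p under 0.05. DESeq2 called 36.

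Of 28 general spiny neuron genes, 10 were higher in Drd1 than in Tshz1-Pcdh8 neurons and 0 lower, with a median of 0.76 against 0.03 over all genes. The number higher was 16 without library 1 (1 lower), 0 without library 2 or library 3, and 2 in DESeq2. Foxp1 had 925, 611 and 1104 CPM against 429, 266 and 202 CPM (1.80 ± 0.27) without overlap. Foxp2 had 507, 426 and 424 CPM against 1288, 797 and 1223 CPM (-1.14 ± 0.25). The level of Foxp2 in Drd1 neurons was therefore between that of Adora2a and Tshz1-Pcdh8 neurons in every library, and Foxp1 had the reverse order. Scn4b, the resurgent sodium channel subunit, had 740, 547 and 626 CPM against 429, 341 and 196 CPM (1.14 ± 0.25, edgeR adjusted p = 0.00057). Of 34 cAMP signalling genes, 9 were higher, among them Adcy5 (0.99 ± 0.25), and Gnas alone was lower (-1.66 ± 0.23). DESeq2 called 1 of these 34 higher, and 0 were higher without library 2 or library 3.

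Further genes separated Drd1 neurons from this class. Calb1, the calcium buffer calbindin, had 306, 652 and 638 CPM against 0, 239 and 31.4 CPM (2.37 ± 0.29). Lpl, lipoprotein lipase, had 209, 114 and 161 CPM against 0, 13.9 and 21.0 CPM (2.99 ± 0.39), and Ebf1 56.3, 49.6 and 155 CPM against 0, 25.0 and 2.62 CPM (2.77 ± 0.45). Without libraries 1, 2 and 3 in turn the log2 fold change was 2.73, 5.63 and 1.04 for Ebf1 and 2.35, 4.33 and 1.5 for Calb1. Neither passed in any of these, and in DESeq2 Calb1 passed and Ebf1 did not (adjusted p = 0.096). Gcnt2 (3.18 ± 0.52), Sv2b (2.13 ± 0.31) and the receptors Htr2c (1.69 ± 0.33) and Oprk1 (1.30 ± 0.29) were higher as well, and all 7 were without overlap. Lower in Drd1 neurons were the G protein gamma subunit Gng2 at 8.05, 12.3 and 6.11 CPM against 286, 105 and 94.3 CPM (-3.32 ± 0.35), the factor Nfix (-3.20 ± 0.42) and the calcium sensor Vsnl1 (-1.99 ± 0.24). Penk was lower by 1.87 ± 0.28, but in library 1 it was higher, at 426 CPM against 286 CPM from 2 UMIs. Slc35d3 (0.68 ± 0.27) and Sfxn1 (0.35 ± 0.28), which set Drd1 apart from Adora2a neurons, did not pass here.

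The FLiCRE transcripts were present in part of the Drd1 neurons. TEV had a UMI in 44.2% ± 20.01 of Drd1 neurons (SD, n = 3 libraries), 37.6% ± 17.8 of Adora2a neurons and 3.90% ± 2.80 of oligodendrocyte-gated cells. The shares for tTA were 29.4% ± 12.5, 23.5% ± 11.1 and 2.21% ± 1.98, and those for mCherry 15.8% ± 8.43, 11.7% ± 6.81 and 5.38% ± 4.93. Each was higher in Drd1 than in Adora2a neurons in 3 of 3 libraries, by 6.58, 5.96 and 4.16 percentage points on average. The exact two-sided sign-flip test gave p = 0.25 for each, the smallest that 3 libraries allow. At 1000 UMIs per cell the differences were 8.45 points for TEV (3 of 3 libraries), 3.03 for tTA (2 of 3) and 1.60 for mCherry (2 of 3).

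**Figure D5:**
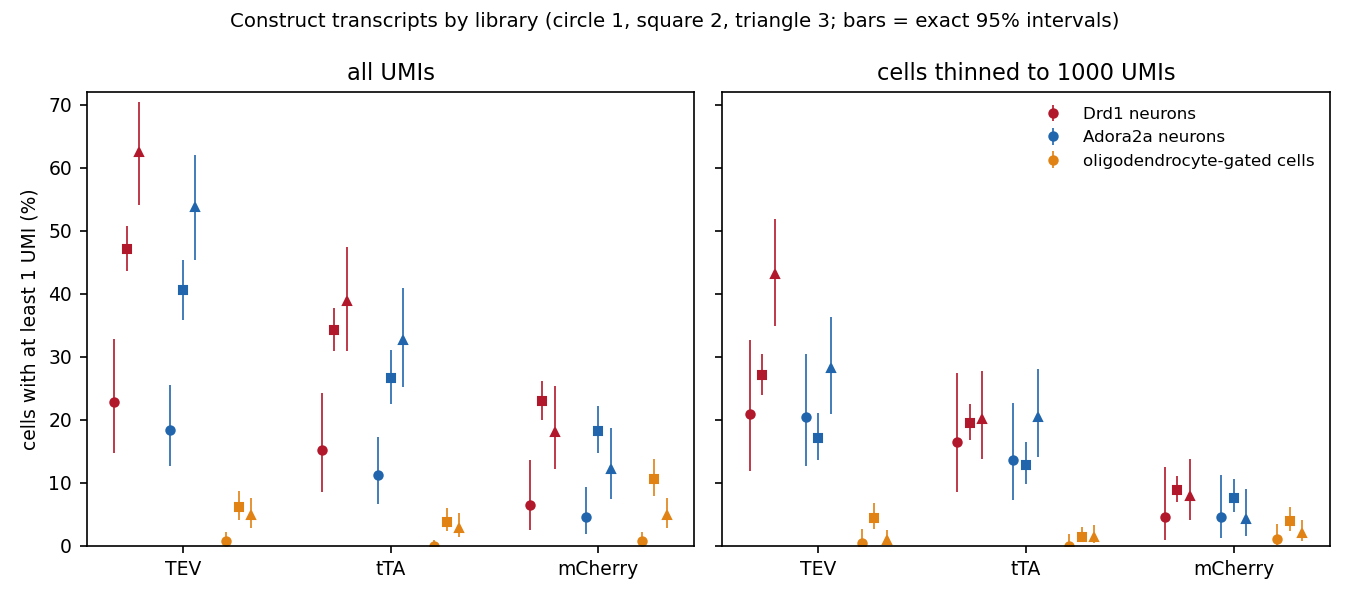
Share of cells with a UMI of TEV, tTA or mCherry (y axis, percent) in Drd1 neurons, Adora2a neurons and oligodendrocyte-gated cells of each library, with exact 95% intervals, for all UMIs (left) and at 1000 UMIs per cell (right). TEV and tTA stand well above the oligodendrocyte-gated cells in both neuron classes, and mCherry less so.

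In the summed counts, TEV had 467, 511 and 1037 CPM in Drd1 neurons and 224, 276 and 439 CPM in Adora2a neurons (1.03 ± 0.10). The transactivator tTA had 426, 304 and 485 CPM against 146, 137 and 233 CPM (1.15 ± 0.11), and neither overlapped. The reporter mCherry had 636, 203 and 87.6 CPM against 44.9, 71.9 and 56.2 CPM (1.68 ± 0.28, edgeR adjusted p = 0.0051), with a gap that was widest in library 1. Of its 585 UMIs in Drd1 neurons, 193 came from 1 cell and 49.7% from 5 cells, while 152 of the 209 cells with mCherry had a single UMI. Without the 5 Drd1 or Adora2a neurons with the most mCherry, a choice made after the data were seen, the log2 fold change was 0.56 ± 0.17 (edgeR adjusted p = 0.047). The edgeR adjusted p of mCherry was 0.067 without library 3 and 0.57 without the 5% of cells with most UMIs, and DESeq2 gave an adjusted p of 1.0. Against other neurons TEV (0.90 ± 0.13) and tTA (0.95 ± 0.13) were higher and mCherry did not pass (0.19 ± 1.29, edgeR adjusted p = 0.97). Against Tshz1-Pcdh8 neurons 0 of the 3 passed in edgeR or DESeq2, with edgeR log2 fold changes of 0.45 ± 0.25 for TEV (adjusted p = 0.48), 0.59 ± 0.24 for tTA (adjusted p = 0.19) and 0.67 ± 0.26 for mCherry (adjusted p = 0.18). Of these, tTA and mCherry had an unadjusted edgeR p under 0.05 (2 of 3).

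Drd1 neurons of the 3 libraries resembled each other for most genes. Of 2127 genes of at least 100 CPM, 1844 stayed within 2-fold over the libraries and 16 exceeded 4-fold, with a median CV of 20.2%. Nts was among those 16 at 48.3, 315 and 75.4 CPM, with Actb at 5182, 1080 and 1895 CPM and the astrocyte gene Apoe at 837, 1325 and 271 CPM.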

How the data were processed

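Libraries were made with the 10x Genomics 3' v2 kit, per the labels. The authors deposited whole UMI counts per gene and cell as 1 pooled matrix of 28001 features, made with Cell Ranger 3.0.0, per the file headers; the submitters' processing notes name mm10. The cell-calling rule and any depth equalisation are not given in the sources used here. From these counts, cells were filtered and gated, and each class was summed within each library. The sums were tested with edgeR 4.0.16 (TMM, filterByExpr, glmQLFit with robust = TRUE and legacy = FALSE, library as block, because paired classes share a library); DESeq2 1.42.0 was an alternative. The 17 gate genes, mitochondrial genes, Xist and Tsix were not reported. Named genes were up to 12 with the highest and 12 with the lowest fold change per comparison among those that passed, had the same sign in all libraries and a mean of at least 50 CPM in the higher class, and of each gene list up to 4; some of these are not reported here. Oligodendrocyte-gated cells are a reference class. Thinning drew 1000 UMIs per cell without replacement (seed 20). The fit was tested on simulated data. Members and lists were chosen with earlier results of these data known. Alternatives covered scaling, filter, test, prior, block, depth, high-UMI cells, gates and each library.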

Additional observations from a re-analysis of the deposited data

How the results depend on the processing

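Genes that passed numbered 1146, 206 and 191 against other, Adora2a and Tshz1-Pcdh8 neurons. Without the library block they numbered 86, 25 and 67, with DESeq2 363, 41 and 36, and with cells thinned to 1000 UMIs 297, 67 and 70. Without a filter on low counts they were 1845 and 95 against other and Adora2a neurons. Against other neurons they were 670 with a neuron gate of 6 UMIs and 382 when other neurons lacked Slc17a7, Mog and Aqp4. Leaving out 1 library gave 0 to 2252, 39 to 204 and 0 to 398. Against Tshz1-Pcdh8 neurons, the share of calls that were higher in Drd1 neurons was 60.2% in edgeR and 30.6% in DESeq2. The remaining alternatives stayed within 1.5 times of these counts. Thinning gave 1.60 and 3.03 percentage points for the mCherry and tTA differences in cells with a UMI. Ermn (0.084) and Stmn2 (0.12) turned from lower to higher when other neurons lacked Slc17a7, Mog and Aqp4. The cause was not tested for any of these changes, beyond the fewer UMIs and libraries. Over named genes and alternatives, 2356 of 3031 values kept their call, 658 lost it, 15 gained one and 2 that had passed turned. Values that passed neither in the main fit nor in the alternative counted as kept, whatever their direction. Drd2, Chrm4 and Eya1 had too few UMIs to be tested against Adora2a neurons.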
